A study of Mus musculus with 13 samples.

Results

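The genes described here are the matrix metalloproteinases (Mmp), the ADAMTS metalloproteinases (Adamts) and the tissue inhibitors of metalloproteinases (Timp). They were chosen by symbol in the array's annotation, as every gene named Mmp or Adamts plus a number (a or b allowed) and Timp1 to Timp4. This gave 46 of the 20738 genes named on the array, namely 23 Mmp, 19 Adamts and 4 Timp genes, read by 80 features. The study compared fibroblasts, induced embryonic Sertoli cells (ieSC) made from them, and native Sertoli cells of several stages, each sample on 1 mouse array of Agilent design. Embryonic fibroblasts (MEF, 2 arrays) were wild type with an empty vector, and tail tip fibroblasts (TTF, 2 arrays) were wild type with tdTomato, a red fluorescent protein, and both were grown for 3 passages in 10% serum. The induced cells carried transgenes for 5 transcription factors that act in gonad development (Nr5a1, Wt1, Dmrt1, Gata4 and Sox9) and were grown for 6 months in 2% serum with doxycycline (MEF-ieSC, 1 array; TTF-ieSC, 2 arrays). No native sample carried a transgene, and all were wild type. They were whole male gonad at 14.5 days post coitum (dpc), not cultured, Sertoli cells of the 19 dpc testis after 3 days in 10% serum, called immature, and those of mice aged 8 weeks after 7 days in 10% serum, called mature, 2 arrays each. Whether replicate arrays came from separate animals or cultures is not stated; the p-values reflect how far these arrays scatter, and that scatter may be technical. The factors, the serum, doxycycline and the time in culture differ together between induced cells and fibroblasts, so their parts cannot be told apart.

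Values are log2 signals, so a difference of 1 is a 2-fold difference. Every array had a median of 7.488, and a level below it is called dim here, since nothing marks which features were detected. Levels are compared between groups for 1 gene, not between genes. Replicate arrays lay 0.190 to 0.347 apart over the 36 tested members (root mean square). By the features on the array, Wt1 stood at 16.48 in TTF-ieSC and 16.58 in MEF-ieSC against 6.81 in TTF and 11.77 in MEF. Gata4 was dim in both induced groups (6.92) and Sox9 was below the fibroblasts. Nr5a1 read 9.37 in TTF-ieSC and 8.94 in MEF-ieSC against 8.28 in TTF and 9.19 in MEF. Dmrt1 read 9.17 and 9.21 against 9.10 and 8.99 in the same order. Whether the features of these factors lie within the transferred sequences is not given. Of 10 embryonic Sertoli markers, 7 were above the array median in each induced group, and Amh, Gata4 and Fshr were not. In MEF 7 were above it as well, Gata4 among them, and in TTF 4. Their summed log2 level was 15.19 to 15.32 in MEF, 13.04 to 13.12 in TTF, 19.59 in MEF-ieSC and 19.83 to 19.86 in TTF-ieSC. The list includes Wt1, Sox9 and Gata4, which were transferred, so its count and sum are not independent of the transgenes. Most of the induced sum is Ptgds, Krt18 and Clu, at 17.50 to 18.12. Cldn11, counted among the 7, read 8.39 in MEF-ieSC and 8.09 in TTF-ieSC against 15.47 in immature and 15.61 in mature Sertoli cells. The native samples held markers of other cells. The summed log2 level of 6 germ cell markers was 14.51 to 16.45 in gonad and both Sertoli cultures against 9.34 to 10.68 in fibroblasts and induced cells. That of 4 Leydig cell markers was 14.54 to 18.14 against 11.09 to 11.89. Of these, Cyp17a1 was not raised in the cultures (10.55 in immature and 11.09 in mature cells, 11.22 in MEF, 11.28 in TTF). Hsd3b1, Cyp11a1 and Star were. In mixtures such as these native samples, fewer cells of a type and less RNA per cell cannot be told apart.

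Matrix metalloproteinases are zinc enzymes that are made as inactive proforms and cleave collagens, other matrix proteins and many signalling proteins. ADAMTS enzymes are secreted relatives that cut proteoglycans such as aggrecan and versican, trim procollagens or act on the fibrillin network. TIMPs bind the active site and hold these enzymes in check, and TIMP2 also takes part, with the membrane-bound MMP14, in activating MMP2. In the testis, Sertoli and peritubular cells build the basement membrane of the tubule together, and remodelling of matrix and junctions by proteases and their inhibitors accompanies germ cell movement.

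In both inductions most of these genes were lower than in the starting fibroblasts. Tests covered the 36 members whose signal passed the array median on 2 or more arrays. Of these, 22 were lower and 9 higher in TTF-ieSC than in TTF, where 35.2% of all 16658 genes tested were called lower and 39.5% higher (limma, adjusted p under 0.05). In MEF-ieSC against MEF 22 were lower and 7 higher, against 33.6% and 34.3% of all genes. The median difference over the members was -1.76 from TTF and -1.33 from MEF, where that of all genes was 0.06 and 0.01. Changes of at least 1 on the log2 scale made up 19 of the falls in each induction, and 8 and 5 of the rises. With this, 13 of the 36 members lay below the array median in TTF-ieSC and 14 in MEF-ieSC, against 5 in TTF and 7 in MEF. In gonad 13 lay below it, in immature Sertoli cells 6 and in mature ones 10. Mmp13 and Adamts18 passed the median on fibroblast arrays alone and entered the tests through them. Shares of all genes below the median, or changed by at least 1, are not given here, so these counts are not read as particular to the members. The root mean square distance between groups over the members was 3.7 for TTF to TTF-ieSC and 3 for MEF to MEF-ieSC, and 1.78 and 1.64 over all tested genes. The summed level of 6 peritubular and smooth muscle markers moved the same way, from at least 19.97 in MEF and 18.63 to 18.73 in TTF to 15.01 and 14.38 to 14.40 in the induced cells. The fibroblast list went from 18.42 to 18.88 in fibroblasts to 16.16 to 17.08, with 5 of its 8 genes now dim. Only Dcn of that list rose, from 15.08 in MEF to 16.13 in MEF-ieSC and from 16.49 in TTF to 17.06 in TTF-ieSC. It makes up most of the summed level in the induced cells. The part of these cell populations in the falls was not tested.

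**Figure D1:**
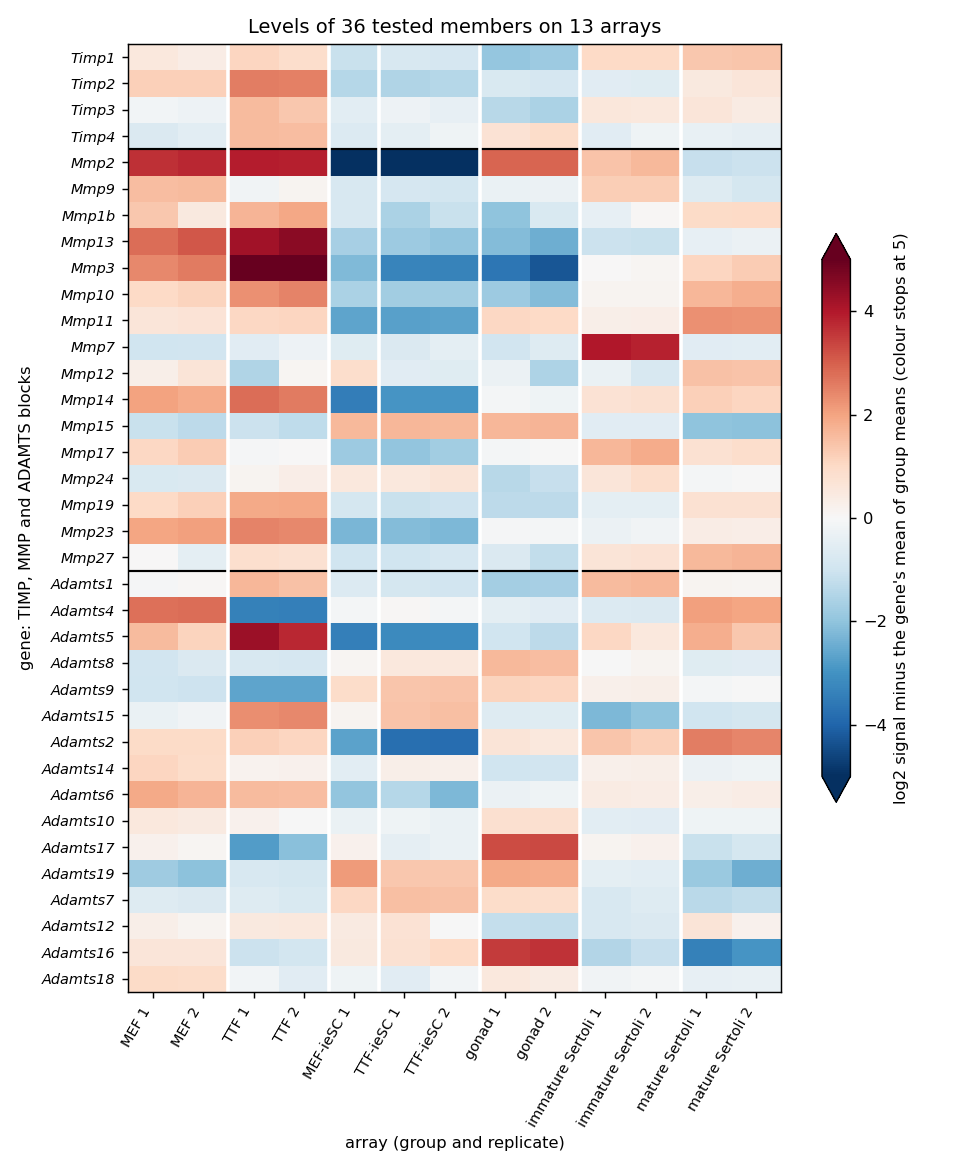
Heat map of the 36 tested genes (rows, in TIMP, MMP and ADAMTS blocks) on the 13 arrays (columns, by group and replicate). Colour is the log2 signal minus that gene's mean of the 7 group means, and stops at 5 in either direction. The induced columns are blue for most TIMP and MMP genes and red for Mmp15, Adamts7, Adamts9 and Adamts19.

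Among the inhibitors, all 4 Timp genes fell in the induction from TTF and 2, Timp1 and Timp2, fell in that from MEF. Timp1, a broad MMP inhibitor encoded on the X chromosome, read 17.40 and 17.21 in TTF, 16.86 and 16.69 in MEF, 15.51 and 15.47 in TTF-ieSC and 15.21 in MEF-ieSC. The fibroblast and induced arrays did not overlap, and Timp1 changed by -1.81 ± 0.08 from TTF and -1.56 ± 0.10 from MEF (adjusted p = 8.25e-08 and 1.37e-06), with no difference between the inductions past the threshold (-0.25 ± 0.13, adjusted p = 0.126; 0.0452 without TTF replicate 2). Native cells bracketed these levels, with 17.67 and 17.71 in mature Sertoli cells, 17.32 on both immature arrays, and 14.37 and 14.48, the lowest of all groups, in gonad.

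Timp2, the partner of MMP14 in the activation of MMP2, read 18.77 and 18.75 in TTF, 17.43 and 17.42 in MEF, 14.73 and 14.79 in TTF-ieSC and 14.79 in MEF-ieSC. The TTF values lie close to the highest signal on an array (18.872), so a ceiling there is possible and was not tested. Timp2 was 15.9-fold lower than in TTF and 6.21-fold lower than in MEF, a log2 difference between the inductions of -1.36 ± 0.09 (adjusted p = 5e-06), and the induced groups ended at overlapping levels. A further Timp2 feature gave log2 changes of -4.15 and -2.49. Timp3, which is held in the matrix and also inhibits ADAMTS enzymes, read 17.66 and 17.42 in TTF and 15.81 and 15.68 in TTF-ieSC, a change of -1.79 ± 0.11. From MEF, at 15.92 and 15.80, to MEF-ieSC, at 15.56, the difference was -0.30 ± 0.13 and did not pass (adjusted p = 0.0778, range over the alternatives 0.0251 to 0.225). Timp4 was dim on all but the TTF and gonad arrays: it read 9.12 and 9.07 in TTF, 8.24 and 8.44 in gonad, and 6.81 to 7.32 on the other 9 arrays. It changed by -1.91 ± 0.14 from TTF and differed by -0.05 ± 0.17 in MEF-ieSC against MEF. Timp1, Timp2 and Timp3 thus stayed far above the array median in every group, induced cells included.

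The largest change of any member was that of Mmp2, gelatinase A, which degrades denatured and basement membrane collagens. It read 14.79 and 14.76 in TTF, 14.50 and 14.64 in MEF, 13.76 and 13.77 in gonad, 12.30 and 12.48 in immature and 9.72 and 9.79 in mature Sertoli cells, but 5.58 and 5.45 in TTF-ieSC and 5.28 in MEF-ieSC. Thus Mmp2 was bright on all 10 fibroblast and native arrays and dim on the 3 induced arrays. The difference was -9.26 ± 0.08 from TTF and -9.29 ± 0.10 from MEF (614-fold and 627-fold lower; adjusted p = 1.01e-11 and 9.98e-11), and the inductions differed by 0.03 ± 0.13. Because the induced signal is dim, these folds depend on a background that is not known. Mmp9, gelatinase B, fell in both inductions as well. It read 9.10 and 9.11 in MEF, 8.78 and 8.76 in immature Sertoli cells, and 6.62 to 7.67 on the other arrays, and changed by -2.35 ± 0.13 from MEF and -0.83 ± 0.11 from TTF. All 10 Mmp9 features were lower in both inductions, at -5.48 to -2.35 from MEF and -3.07 to -0.83 from TTF.

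The membrane-type MMPs, which act at the cell surface, went both ways. Mmp14 (MT1-MMP), the activator of MMP2, read 13.70 and 13.52 in TTF and 12.93 and 12.77 in MEF against 7.96 on both TTF-ieSC arrays and 7.46 in MEF-ieSC. It changed by -5.65 ± 0.09 and -5.39 ± 0.11 (adjusted p = 1.07e-10 and 9.53e-10), and all 6 native arrays lay between, at 10.71 to 12.10. Mmp15 (MT2-MMP) did the opposite. It read 8.27 and 8.06 in TTF and 8.20 and 8.04 in MEF, and 10.99, 10.95 and 10.97 on the 3 induced arrays, a rise of 2.80 ± 0.08 and 2.85 ± 0.10 (adjusted p = 3.92e-09 and 2.28e-08). The gonad mean was 11.01 (± 0.03 SD, n = 2), next to the induced cells. Mmp24 (MT5-MMP) rose from 6.58 and 6.64 in MEF to 7.88 in MEF-ieSC (1.27 ± 0.13), but its other feature gave -0.15. From TTF the rise of 0.34 ± 0.11 (adjusted p = 0.0174) was lost without TTF replicate 1 (0.103), without TTF-ieSC replicate 2 (0.0872), with a variance trend and robust fit (0.0559) and with the mean of both features (0.281; range over the alternatives 0.00134 to 0.281). Mmp17 fell in both, and Mmp16 and Mmp25 were too dim to test.

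**Figure D2:**
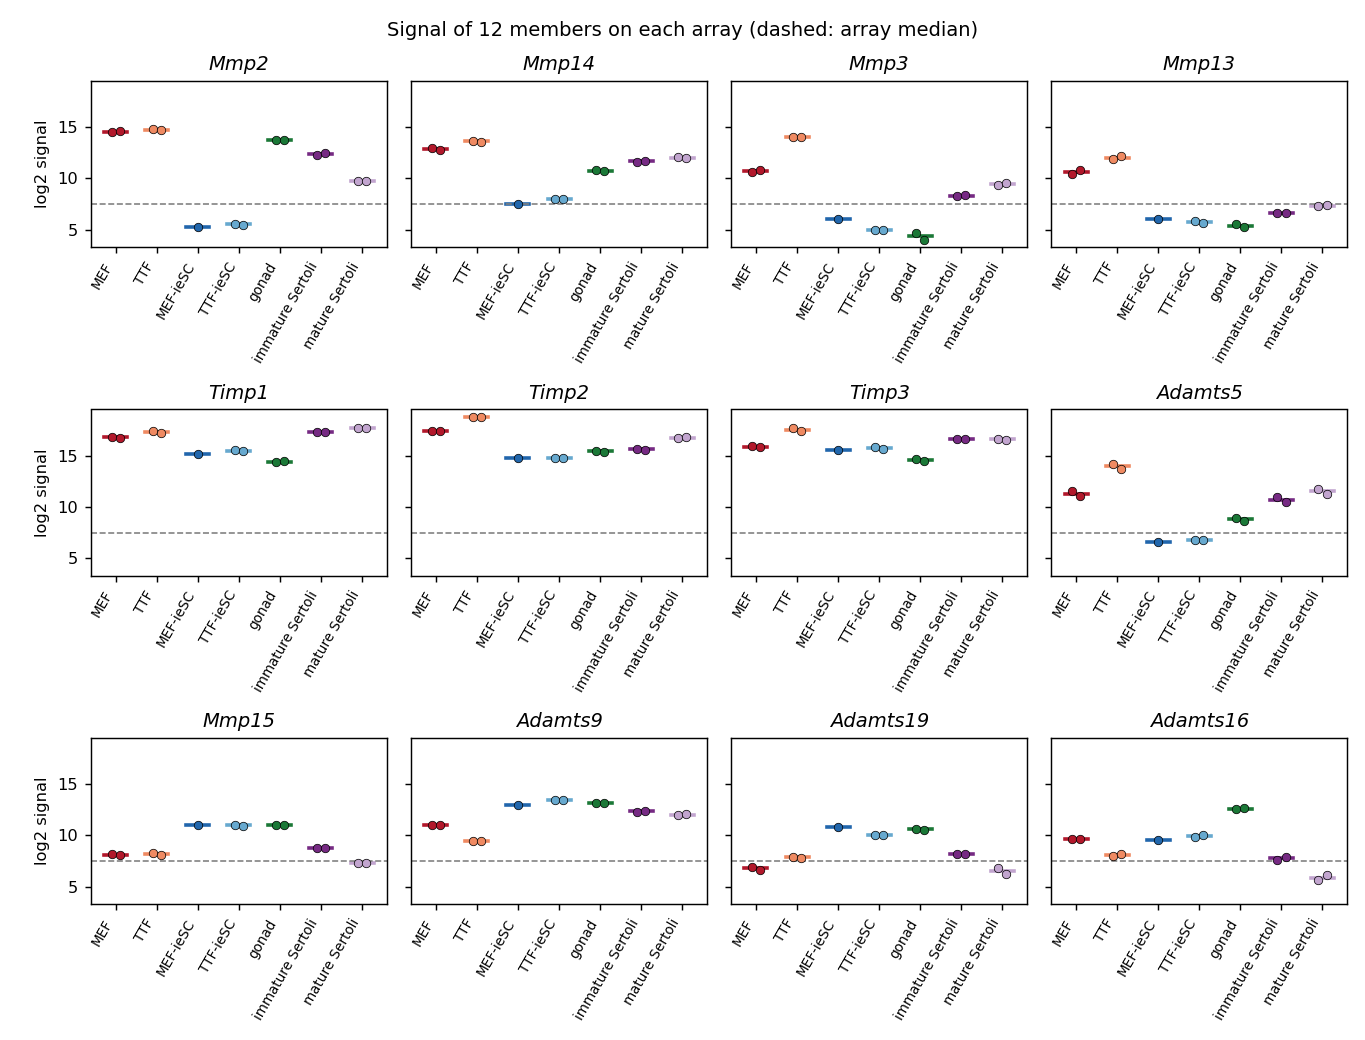
Log2 signal of 12 genes on each array. Points are arrays, short bars are group means, the dashed line is the array median of 7.488, and groups lie along the horizontal axis. Mmp2 lies at 5.28 to 5.58 on the 3 induced arrays and at 9.72 or more on all others, whereas the 3 TIMP genes shown stay at 14.37 or more on every array.

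A run of 10 of the MMP genes lies side by side on chromosome 9 with no other protein-coding gene between its ends: Mmp13, Mmp12, Mmp1b, Mmp3, Mmp1a, Mmp10, Mmp8, Mmp27, Mmp20 and Mmp7. It holds collagenases, which cut fibrillar collagen, stromelysins, which cut proteoglycans and activate other MMPs, the macrophage elastase Mmp12, the enamel protease Mmp20 and matrilysin (Mmp7). These genes are shown with promoter sequence because several moved together. The bases before the start site follow for 4 of them and for Mmp15, from RefSeq (GRCm38.p6, plus strand, 5′ to 3′, 150 bases each, ending at the base before the start). Capitals mark TGANTCA (N is any base), a pattern that takes in the letters bound by AP-1 but is wider. They also mark TATAAA, the letters of the TATA box, wherever these lie. Both strands were searched and no 2 matches overlap.
Mmp13, chr9:7272364-7272513: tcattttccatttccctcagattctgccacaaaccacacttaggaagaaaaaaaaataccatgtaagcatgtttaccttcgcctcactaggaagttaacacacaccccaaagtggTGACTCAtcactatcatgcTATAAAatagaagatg
Mmp3, chr9:7445672-7445821: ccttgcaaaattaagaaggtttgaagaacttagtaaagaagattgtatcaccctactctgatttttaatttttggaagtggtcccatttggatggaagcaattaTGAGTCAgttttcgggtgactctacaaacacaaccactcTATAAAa
Mmp10, chr9:7502192-7502341: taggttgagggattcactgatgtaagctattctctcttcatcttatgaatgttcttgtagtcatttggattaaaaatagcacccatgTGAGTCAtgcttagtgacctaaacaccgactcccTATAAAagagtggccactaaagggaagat
Mmp7, chr9:7691940-7692089: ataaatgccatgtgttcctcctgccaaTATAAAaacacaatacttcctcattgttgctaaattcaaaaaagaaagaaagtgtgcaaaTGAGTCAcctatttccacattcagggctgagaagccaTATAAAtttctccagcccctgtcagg
Mmp15, chr8:95352146-95352295: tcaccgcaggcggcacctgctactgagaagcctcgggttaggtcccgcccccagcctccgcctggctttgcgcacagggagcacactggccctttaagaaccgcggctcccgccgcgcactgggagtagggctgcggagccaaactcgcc

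In these windows the AP-1 letters begin 35 bases before the start in Mmp13, 46 in Mmp3, and 63 in Mmp10 and Mmp7. The TATA letters begin 16, 7, 29 and 26 bases before it, and Mmp7 has another TATAAA at 123; the window at its other start site has neither. Over 250 bases before the start, TGANTCA was present for 8 of the 10 genes of the run (80%), and these were the only ones among the 32 members with a promoter entry (25%), against 6.75% of all 32851 promoters. TATAAA was present for 9 of the 32 members (28.1%), 7 of them in the run, against 12.4% of all. Members were counted as genes and all promoters singly, so these shares differ in unit. A match describes letters only.

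Of the 7 genes of the run bright enough to test, 5 fell and 0 rose in each induction (Mmp13, Mmp1b, Mmp3, Mmp10 and Mmp27), and Mmp7 and Mmp12 did not pass; of all genes, 35.2% fell and 39.5% rose from TTF and 33.6% and 34.3% from MEF. Mmp3, stromelysin 1, read 14.00 and 14.01 in TTF and 10.67 and 10.85 in MEF, then 4.97 and 4.94 in TTF-ieSC and 6.06 in MEF-ieSC. This is -9.05 ± 0.18 from TTF (531-fold lower) and -4.70 ± 0.22 from MEF (26.1-fold lower), and the inductions differed (-4.35 ± 0.29, adjusted p = 5.31e-06). Mmp13, collagenase 3, read 11.88 and 12.19 in TTF, 10.47 and 10.78 in MEF, 5.88 and 5.69 in TTF-ieSC and 6.00 in MEF-ieSC, a change of -6.25 ± 0.14 and -4.62 ± 0.18. It passed the array median on fibroblast arrays alone, so it entered the tests through the groups where it was high. Mmp10, stromelysin 2, went from 10.06 and 10.28 in TTF to 6.06 and 6.04, and from 8.79 and 8.89 in MEF to 6.20, a change of -4.12 ± 0.11 and -2.64 ± 0.14. Mmp3, Mmp13 and Mmp10 ended dim in both induced groups and read lower still in gonad (4.01 to 5.98). As for Mmp2, the folds of these 3 genes, and the gap between inductions for each of them, depend on the unknown background.

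Mmp7, at the end of the run, followed another pattern. It read 11.19 and 11.04 in immature Sertoli cells and 6.19 to 6.94 on the other 11 arrays, so it was bright in 1 group only. The induced cells did not differ from TTF past the threshold (-0.19 ± 0.14), nor from MEF (0.37 ± 0.17, adjusted p = 0.0778; 0.0476 without TTF replicate 1 or 2, range over the alternatives 0.0418 to 0.162). Mmp12 read 7.87 and 7.84 in mature Sertoli cells and 4.90 to 7.29 elsewhere, with the TTF arrays far apart at 4.91 and 6.52. Mmp1a and Mmp1b are close relatives, and whether their features tell them apart is not known. The run was also higher in TTF than in MEF for 5 of the 7 genes and lower for 0, where 31.1% and 35.5% of all genes were called.

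**Figure D3:**
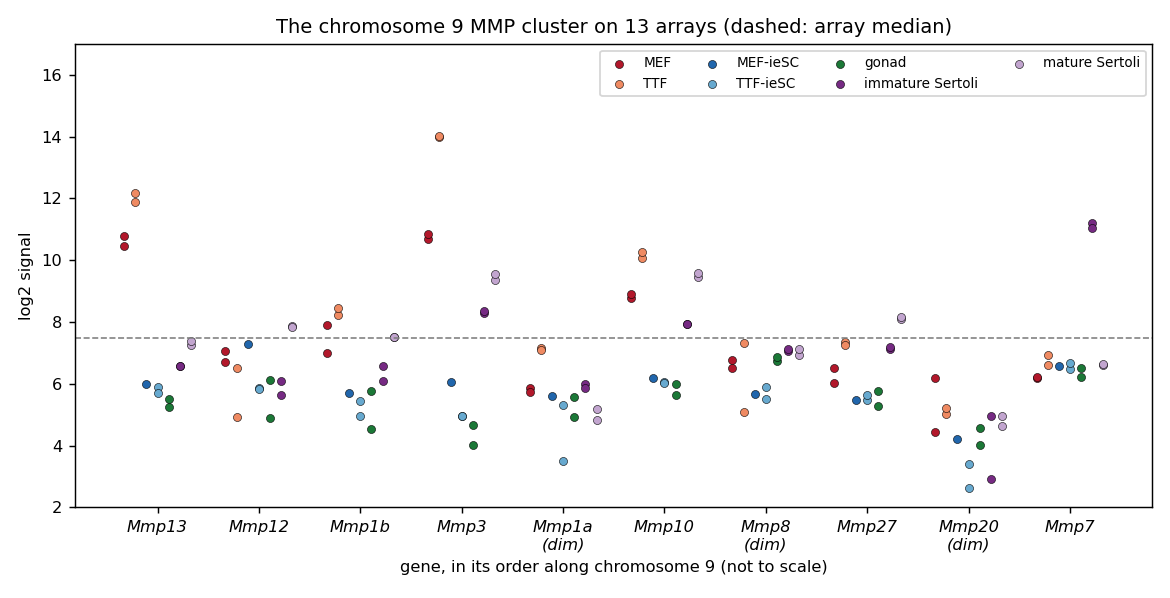
Log2 signal of the 10 chromosome 9 MMP genes in their order along the chromosome (horizontal axis, not to scale), 1 point per array and 1 colour per group. The dashed line is the array median and genes marked dim were not tested. Tail tip fibroblasts reach 14.01 for Mmp3, and immature Sertoli cells alone stand high for Mmp7, at 11.04 and 11.19.

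Of the remaining MMPs, Mmp11 and Mmp19 fell clearly in both inductions. Mmp11, stromelysin 3, an enzyme of remodelling stroma, read 15.08 and 15.15 in TTF, 14.65 and 14.74 in MEF, 11.36 and 11.40 in TTF-ieSC and 11.44 in MEF-ieSC, and was highest in mature Sertoli cells (16.34 and 16.31). The change was -3.73 ± 0.05 and -3.26 ± 0.07, and its other feature gave -3.74 and -3.18. Mmp19, which cleaves basement membrane proteins, read 10.55 and 10.57 in TTF and 9.65 and 9.83 in MEF, and 7.54, 7.60 and 7.75 in the induced cells, close to the array median and to the gonad (7.35 on both arrays). It changed by -2.99 ± 0.06 and -1.99 ± 0.08. Mmp17, Mmp23, Mmp1b and Mmp27, which fell too, changed by -4.65 to -1.73 from TTF and -4.29 to -0.78 from MEF, but the other Mmp27 feature gave only -0.18 and -0.13.

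The ADAMTS genes were more divided. Of the 6 tested that cut aggrecan, versican and related proteoglycans, 3 rose and 3 fell in each induction by their brightest features, with Adamts4 and Adamts15 changing sides. Adamts5, the main aggrecan-cutting enzyme of mouse cartilage, read 14.20 and 13.70 in TTF, 11.54 and 11.04 in MEF, 6.76 and 6.80 in TTF-ieSC and 6.53 in MEF-ieSC. It changed by -7.17 ± 0.27 (144-fold lower) and -4.76 ± 0.32 (27.2-fold lower), and its other feature gave -7.88 and -4.48; the induced signal is dim here too. Adamts1, which cuts aggrecan and versican, went from 15.36 and 15.19 to 12.84 and 12.78 from TTF (-2.47 ± 0.07) and from 13.66 and 13.76 to 13.03 from MEF (-0.68 ± 0.09).

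Adamts9, a versican-cutting enzyme of development, rose in both. It read 9.44 and 9.42 in TTF and 13.46 and 13.47 in TTF-ieSC, a rise of 4.03 ± 0.05 (16.4-fold), and 11.05 and 11.03 in MEF and 12.99 in MEF-ieSC, a rise of 1.95 ± 0.06 (3.86-fold). The induced levels lay around those of the gonad (13.16 and 13.13). Adamts15, another versican-cutting enzyme, moved from 12.24 and 12.32 to 11.34 and 11.43 from TTF, a change of -0.90 ± 0.09, and from 9.58 and 9.74 to 10.07 from MEF, a rise of 0.41 ± 0.11 that was lost without MEF replicate 1 (adjusted p = 0.0544; range over the alternatives 0.00208 to 0.0572). Adamts4, an aggrecanase, depends on the feature. By the brightest, which the annotation pairs with a cDNA clone, it read 7.64 and 7.60 in TTF against 13.78 and 13.80 in MEF and 10.90 to 11.07 in the induced cells, hence +3.37 ± 0.06 from TTF and -2.90 ± 0.08 from MEF. By the other, paired with the RefSeq transcript, TTF and MEF averaged 12.44 and 12.14 and the differences were -2.51 and -2.14. The direction of Adamts4 from TTF is therefore not settled. Adamts8 rose in both by its brightest feature alone (the other gave -0.01 and 0.01).

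Of the procollagen N-proteinases, which trim collagens I to III before fibrils form, Adamts2 fell from 15.44 and 15.32 in TTF to 10.47 and 10.43 (-4.92 ± 0.08) and from 15.21 and 15.20 in MEF to 11.58 (-3.63 ± 0.10), with -2.62 and -1.60 by its other feature. Adamts14 read 13.44 and 13.48 in TTF and 13.55 and 13.52 in TTF-ieSC, a difference of 0.07 ± 0.07, but 14.35 and 14.17 in MEF and 12.75 in MEF-ieSC, a change of -1.51 ± 0.08. The other Adamts14 feature gave 0.19 from TTF and -0.26 from MEF. Adamts3 was dim. Expression of Adamts2 and its substrates changed by unequal amounts: Col1a2 fell (-7.56 ± 0.07 and -7.22 ± 0.09) with Col3a1 (-5.18 ± 0.09 and -5.85 ± 0.11), and Col1a1 fell less by estimate (-1.19 ± 0.06 and -0.50 ± 0.07).

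Adamts19, an enzyme of few known substrates that is expressed in the developing gonad, rose in both inductions. It read 7.91 and 7.81 in TTF and 10.06 on both TTF-ieSC arrays, and 6.93 and 6.64 in MEF and 10.84 in MEF-ieSC. The rise was 2.20 ± 0.17 (4.59-fold) and 4.05 ± 0.21 (16.6-fold), and all 10 features were higher, by 2.20 to 2.54 and 4.05 to 4.84. The gonad, at 10.60 and 10.55, was within the span of the induced arrays. Adamts7, which cuts cartilage oligomeric matrix protein, rose from 9.39 and 9.27 in TTF to 11.54 and 11.48 (2.18 ± 0.08) and from 9.37 and 9.28 in MEF to 11.05 (1.72 ± 0.09), and no other group read as high (10.93 and 10.89 in gonad, the next).

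Adamts16 and Adamts17 were brightest in gonad. Adamts16 read 12.53 and 12.65 there, 9.64 and 9.65 in MEF, 9.52 in MEF-ieSC, 9.81 and 10.06 in TTF-ieSC and 7.98 and 8.14 in TTF. It rose from TTF by 1.87 ± 0.16 and differed by -0.12 ± 0.19 in MEF-ieSC against MEF; its other feature gave 1.14 and 0.24. Adamts17, linked to fibrillin microfibrils, read 11.28 and 11.31 in gonad, 5.24 and 5.94 in TTF, 7.56 and 7.70 in TTF-ieSC, 8.23 and 8.11 in MEF and 8.22 in MEF-ieSC, hence 2.04 ± 0.19 and 0.05 ± 0.24 (0.70 and 0.09 by its other feature). Both rose from TTF: Adamts16 read higher on both TTF-ieSC arrays than on the MEF and MEF-ieSC arrays, and Adamts17 read lower than there. Of the others, Adamts6 and Adamts10 fell in both inductions, Adamts18 fell from MEF and did not pass from TTF, and Adamts12 did not pass in either.

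The inductions, which share no array, had 19 falls in common, 86.4% of the 22 falls in each. By the brightest features they shared 6 rises (Mmp15, Mmp24, Adamts7, Adamts8, Adamts9 and Adamts19), 66.7% of the rises from TTF and 85.7% of those from MEF. The other feature gave 0.07 from TTF and -0.15 from MEF for Mmp24, and -0.01 and 0.01 for Adamts8. Over the 36 members the 2 sets of differences correlated at Pearson 0.846 and Spearman 0.835, a description over genes that share arrays and are not independent. No such overlap or correlation over all genes is given here, so neither is read as particular to these members. The change was more negative from TTF for 16 members and more positive for 11, where 25.2% and 28.9% of all genes were called. More negative from TTF were Mmp3, Mmp10, Mmp13, Timp2, Timp3, Timp4, Adamts1, Adamts2, Adamts5 and 7 others. More positive were Adamts9 (2.08 ± 0.08), Adamts16 (2.00 ± 0.25), Adamts17 (1.99 ± 0.31), Adamts14 (1.59 ± 0.10) and Mmp9 (1.52 ± 0.17), with Adamts4 by its clone feature (6.27 ± 0.10). The sizes for Adamts14, Adamts16, Adamts17 and Mmp9 depend on the feature read. For Mmp2, Mmp14 and Mmp15 the difference was 0.03 ± 0.13, -0.26 ± 0.14 and -0.05 ± 0.12, none past the threshold.

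**Figure D4:**
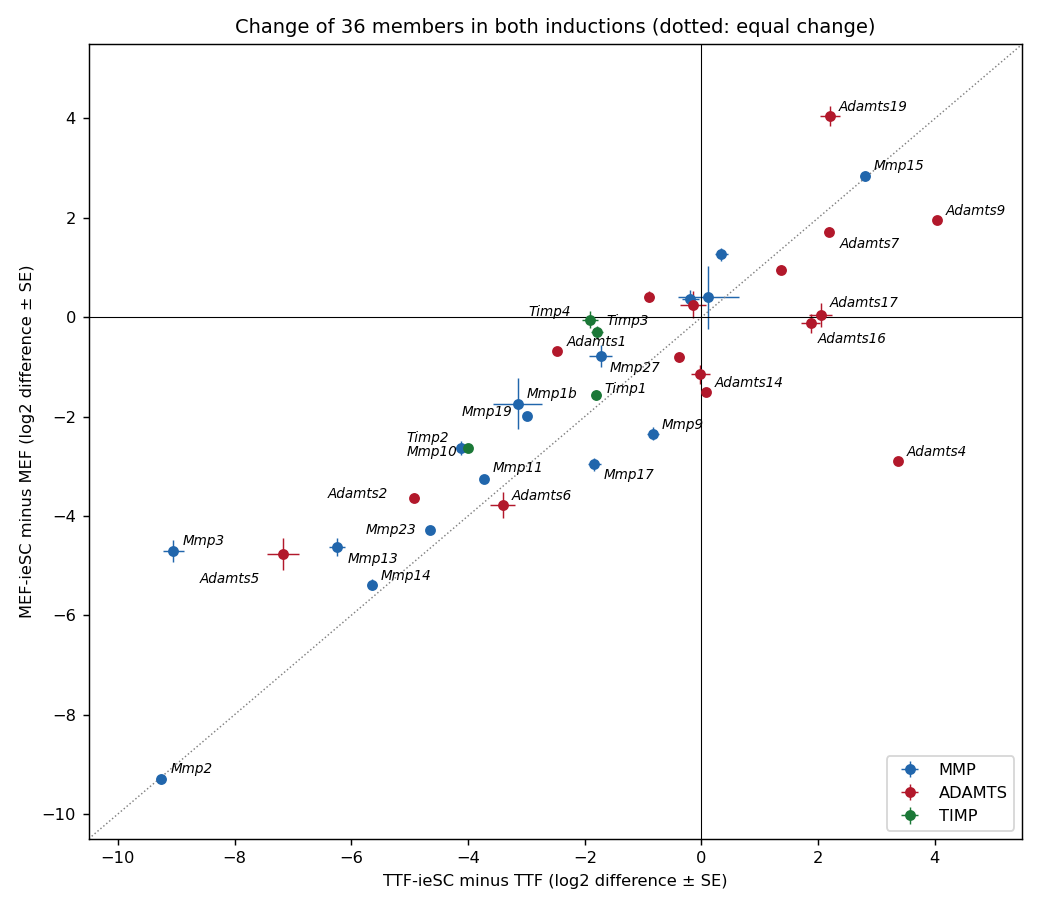
Log2 difference from the starting cells in the induction from tail tip fibroblasts (horizontal axis) and from embryonic fibroblasts (vertical axis) for the 36 tested genes. Bars are standard errors of the fit and the dotted line marks equal change. Mmp2 lies on the line at -9.26 and -9.29, and Adamts4 lies farthest from it, at 3.37 and -2.90 by its brightest feature.

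This difference is also that between the induced groups less that between the starting cells, and the starting cells were the farther apart. TTF had higher levels than MEF for 19 members and lower for 9, against 31.1% and 35.5% of all genes. Mmp3 was higher in TTF by 3.25 ± 0.18, Adamts5 by 2.66 ± 0.27, Adamts15 by 2.62 ± 0.09, Timp4 by 2.18 ± 0.14 and Timp3 by 1.68 ± 0.11. Lower in TTF were Adamts17 (-2.58 ± 0.19), Adamts9 (-1.61 ± 0.05), Mmp9 (-1.60 ± 0.11) and Adamts16 (-1.58 ± 0.16), and Adamts4 by its clone feature (-6.17 ± 0.06). All 4 Timp genes were higher in TTF. The root mean square distance over the members was 1.7 between TTF and MEF (0.998 over all genes) and 0.522 between TTF-ieSC and MEF-ieSC (0.468 over all genes).

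Between the induced groups 6 members were higher in TTF-ieSC and 3 lower, where 7.53% and 6.76% of all genes were called. Adamts15 was higher by 1.32 ± 0.11 and Adamts14 by 0.79 ± 0.08, while Adamts2 (-1.13 ± 0.10) and Mmp3 (-1.10 ± 0.22) were lower. Mmp14 (0.50 ± 0.11), Adamts9 (0.47 ± 0.06), Adamts7 (0.46 ± 0.09) and Adamts8 were also higher, and Adamts19 (-0.78 ± 0.21, adjusted p = 0.0429) was lower. No Timp gene passed, with differences of -0.03 to 0.33. MEF-ieSC is 1 array, so these calls borrow the spread of the other groups. In a fit of these 3 arrays alone limma called 0 of the 36 members, with 14 at an unadjusted p under 0.05 and 6 of all genes called. Without TTF-ieSC replicate 1 there were 3 higher and 2 lower; the Mmp14 call was lost when TTF-ieSC replicate 1 or 2 was left out (adjusted p = 0.0549 and 0.0539, range over the alternatives 0.0046 to 0.0741), Adamts7 without replicate 1 (0.0588; 0.00475 to 0.0893), and Adamts19 without either array of TTF, TTF-ieSC, gonad or immature Sertoli cells (0.0576 to 0.111; 0.000694 to 0.111 over all alternatives).

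Set against cultured immature Sertoli cells, the induced cells were again lower for most members. In TTF-ieSC 21 were lower and 10 higher, against 39% and 37.8% of all genes, and in MEF-ieSC 20 were lower and 8 higher, against 36.2% and 34.4%; both comparisons use the same immature Sertoli arrays. The median member differed by -0.83 and -0.70. Lowest relative to the immature cells were Mmp2 (-6.88 ± 0.08 in TTF-ieSC and -7.11 ± 0.10 in MEF-ieSC), Adamts2 (-5.06 ± 0.08 and -3.93 ± 0.10), Mmp7 (-4.54 ± 0.14 and -4.54 ± 0.17), Adamts5 (-3.94 ± 0.27 and -4.19 ± 0.32) and Mmp14 (-3.70 ± 0.09 and -4.20 ± 0.11). Among the inhibitors Timp1 (-1.83 ± 0.08 and -2.11 ± 0.10), Timp2 (-0.86 ± 0.06 and -0.84 ± 0.07) and Timp3 (-0.86 ± 0.11 and -1.05 ± 0.13) were lower in both. Higher in both were Adamts15 (3.58 ± 0.09 and 2.26 ± 0.11), Adamts7 (2.21 ± 0.08 and 1.76 ± 0.09), Mmp15 (2.19 ± 0.08 and 2.20 ± 0.10), Adamts16 (2.19 ± 0.16 and 1.78 ± 0.19) and Adamts19 (1.87 ± 0.17 and 2.65 ± 0.21).

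Over the members, TTF-ieSC and MEF-ieSC each lay 2.14 from gonad (root mean square), 2.49 and 2.41 from immature and 2.73 and 2.61 from mature Sertoli cells, where the distances over all genes were 1.77 and 1.79, 1.58 and 1.6, and 1.78 and 1.8. By the members gonad was thus the nearest native group, and by all genes the immature cells; this order was not tested. The cultured Sertoli samples also carried the peritubular and smooth muscle markers at 19.63 to 19.90, and macrophage markers at 13.89 to 14.25, while the induced cells read 14.38 to 15.01 and 11.61 to 11.98. The fibroblast list did not go the same way by its summed level, which was 15.93 to 15.99 in immature and 16.93 in mature cells against 17.07 to 17.08 in TTF-ieSC and 16.16 in MEF-ieSC, although all 8 of its genes were above the array median in the cultured Sertoli cells and 3 of 8 in the induced cells. Most of the induced sum is Dcn, at 17.06 in TTF-ieSC and 16.13 in MEF-ieSC against 13.55 in immature and 16.05 in mature cells. The part of these cell populations in the gap between induced and native cells was not tested.

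**Figure D5:**
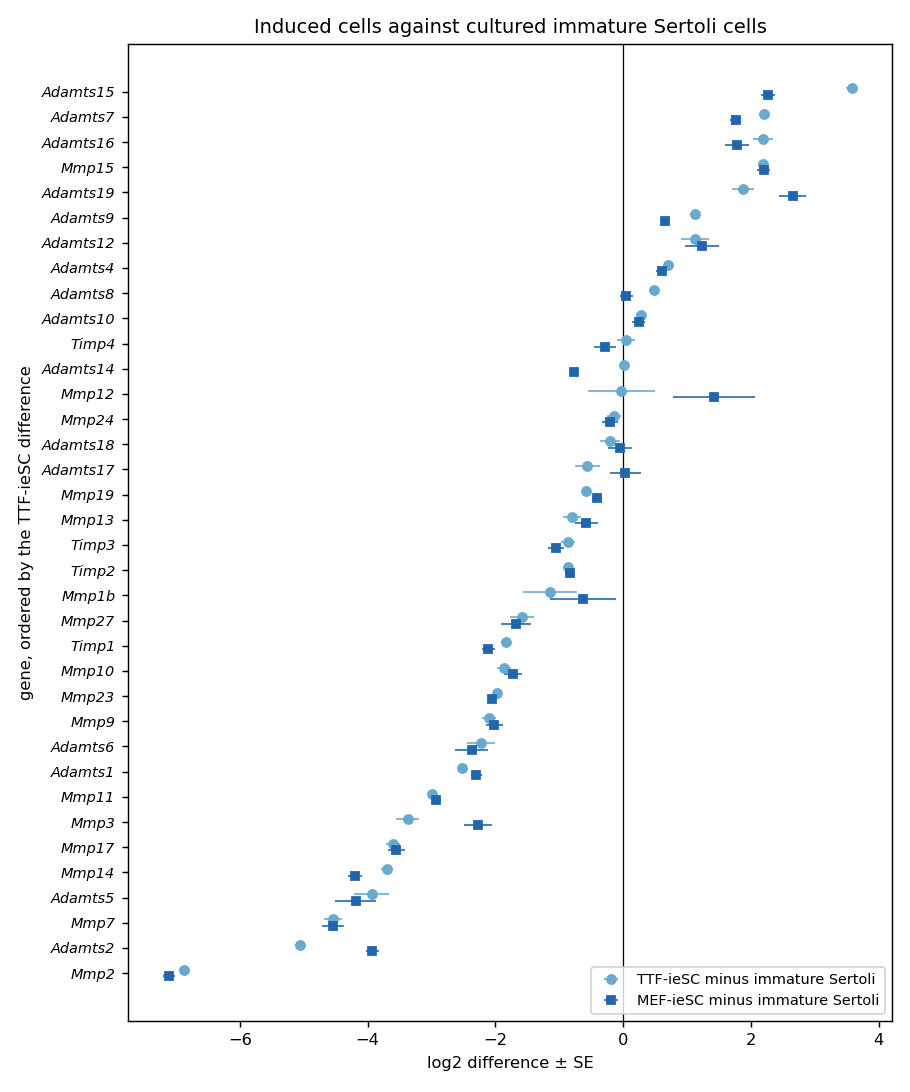
Log2 difference of TTF-ieSC (circles) and MEF-ieSC (squares) from cultured immature Sertoli cells for the 36 tested genes, with standard errors of the fit. Genes are ordered by the TTF-ieSC difference. Mmp2 is at the bottom, with -6.88 and -7.11, and Adamts15 at the top, with 3.58 and 2.26.

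Native samples also differed among themselves. Immature Sertoli cells were higher than whole gonad for 19 members and lower for 15, against 32.6% and 37.9% of all genes. Mmp7 (4.75 ± 0.14), Mmp3 (3.98 ± 0.18), Adamts1 (3.29 ± 0.07), Timp1 (2.90 ± 0.08) and Mmp10 (2.11 ± 0.11) were the most raised. Adamts16 (-4.85 ± 0.16), Adamts17 (-3.10 ± 0.19), Adamts19 (-2.39 ± 0.17), Mmp15 (-2.24 ± 0.08) and Adamts7 (-1.62 ± 0.08) were the most reduced. In the chromosome 9 run 6 of the 7 tested genes were higher in the immature cells and 0 lower, against the 32.6% and 37.9% of all genes. Mmp7 entered the tests through the immature arrays alone, so this count is not independent of the filter. Of the reduced genes, Adamts19, Mmp15 and Adamts7 are also among those higher in induced cells than in fibroblasts. Timp3 was higher by 2.02 ± 0.11, Timp4 lower (-1.19 ± 0.14), and Timp2 higher by 0.20 ± 0.06 (2.04 by its other feature), a call lost without immature Sertoli replicate 1 (adjusted p = 0.0619) or gonad replicate 2 (0.0851; range over the alternatives 2.1e-07 to 0.0851). The gonad was not cultured and is a mixed organ: its summed levels were 18.94 to 19.01 for erythroid markers, 18.11 to 18.14 for Leydig and 16.35 to 16.44 for peritubular and smooth muscle markers, against 10.11 to 10.27, 14.54 to 14.70 and 19.63 to 19.64 in the immature culture. Their part in these differences was not tested.

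Mature Sertoli cells were higher than immature ones for 18 members and lower for 14, against 28.9% and 39.6% of all genes; age and days in culture differ together here and cannot be told apart. Mmp7 (-4.49 ± 0.14), Mmp2 (-2.64 ± 0.08), Mmp9 (to 6.89 and 6.65), Adamts16 (-1.87 ± 0.16) and Adamts19 (-1.64 ± 0.17) fell the most. Mmp2 thus had its lowest native level in mature cells, at 9.72 and 9.79. Adamts4 rose by 2.73 ± 0.06 (2.08 by its other feature), Mmp12 by 1.99 ± 0.52 (0.37), Mmp11 by 1.95 ± 0.05, Mmp10 by 1.61 ± 0.11 and Mmp19 by 1.24 ± 0.06. The Mmp12 call was lost without immature Sertoli replicate 2 (adjusted p = 0.0524; range over the alternatives 0.000285 to 0.0524). In the chromosome 9 run 6 of the 7 tested genes were higher in mature cells, against 28.9% of all genes, and only Mmp7 was lower. Mmp12 and Mmp27 passed the array median on the mature arrays alone, and Mmp7 on the immature arrays alone. These genes entered the tests through the group where they were high, so the count is not independent of the filter. Timp1 and Timp2 rose by 0.37 ± 0.08 and 1.13 ± 0.06, and Timp3 and Timp4 differed by -0.03 ± 0.11 and -0.02 ± 0.14. The summed level of macrophage markers was 14.10 to 14.25 in immature and 13.89 to 13.96 in mature cells, and most of it is Csf1r (13.83 and 13.23). Of that list Csf1r and Adgre1 were lower in mature cells, whereas C1qa, C1qb, C1qc, Cd68, Ptprc and Mrc1 were higher. Neutrophil markers were at 12.52 in immature and 10.26 to 10.27 in mature cells. The part of these cell populations was not tested.

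Across the 7 groups TTF held the highest mean for 14 of the 36 tested members, MEF, gonad and mature Sertoli cells for 5 each, immature cells for 4, TTF-ieSC for 2 and MEF-ieSC for 1. The lowest mean fell to gonad for 12, to MEF-ieSC for 7, to TTF-ieSC and mature Sertoli cells for 5 each, to TTF for 3, and to MEF and immature cells for 2 each. The 10 members too dim to test were Mmp1a, Mmp8, Mmp16, Mmp20, Mmp21, Mmp25, Mmp28, Adamts3, Adamts13 and Adamts20, and nothing is said of their change. Of the 18 members with more than 1 feature, the features differed in sign for 5 from TTF (Mmp12, Adamts4, Adamts8, Adamts12, Adamts13) and for 4 from MEF (Mmp12, Mmp24, Adamts13, Adamts16).

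Genes that work with these proteases were read in the same fit, where 35.2% of all genes fell and 39.5% rose from TTF and 33.6% and 34.3% from MEF. Of 9 tested inhibitors, activators and receptors that clear matrix proteases, 8 fell and 0 rose from TTF and 7 fell and 0 rose from MEF (medians -1.47 and -1.17). They included Lrp1 (-4.20 ± 0.08 and -3.44 ± 0.10), the endocytic receptor that clears MMPs, ADAMTS enzymes and TIMPs, and Cd44 (-4.18 ± 0.06 and -3.50 ± 0.08), a hyaluronan receptor that holds MMPs at the cell surface. Reck, a membrane inhibitor of MMPs, fell from TTF (-0.91 ± 0.09) and differed by 0.05 ± 0.10 in MEF-ieSC against MEF (adjusted p = 0.697). Of 5 tested genes of plasminogen activation, which feeds into MMP activation, 3 fell and 1 rose from TTF and 2 fell and 3 rose from MEF. The activator Plau fell (-3.42 ± 0.06 and -2.56 ± 0.07) with its receptor Plaur (-2.13 ± 0.09 and -2.40 ± 0.11), and the inhibitor Serpine2 rose (0.65 ± 0.11 and 2.09 ± 0.14).

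Of 8 tested membrane ADAM proteases, the cell-surface relatives of ADAMTS, 7 fell and 1 rose from TTF and 5 fell and 0 rose from MEF. Adam19 fell in both (-5.10 ± 0.06 and -5.03 ± 0.07), and Adam8 fell too (-5.96 ± 0.08 from TTF and -1.30 ± 0.10 from MEF). Adam10, the general sheddase, differed by 0.32 ± 0.05 and -0.00 ± 0.07. Of 7 ADAMTS-like glycoproteins, which lack the protease domain, 2 rose and 3 fell from TTF and 4 rose and 3 fell from MEF, with Adamtsl1 at -6.95 ± 0.11 and -4.83 ± 0.13 and Papln at 3.85 ± 0.28 and 1.30 ± 0.34; these counts, over 7 genes, are not read as different from the shares over all genes. Of 13 matrix substrates 9 fell and 3 rose in each induction. The fibrillin gene Fbn1 fell (-4.49 ± 0.09 and -4.32 ± 0.11), as did the versican gene Vcan (-1.26 ± 0.08 and -1.02 ± 0.09), and the aggrecan gene Acan, substrate of Adamts4 and Adamts5, rose by 4.40 ± 0.06 and 2.41 ± 0.08. The laminin chain Lamc1 rose by 1.16 ± 0.11 and 1.34 ± 0.14.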

How the data were processed

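Gene expression was read on 13 one-colour Agilent mouse arrays of 62976 features. The authors deposited 1 table of log2 signals, already of the same distribution on every array; limma is named in the submitters' processing notes, without version or role. Of feature extraction, background treatment and detection flags nothing is given in the sources used, and the number of arrays limits the precision.

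The annotation named 31465 features, matched to 20738 genes with RefSeq GRCm38.p6 symbols, and each gene was read by its brightest feature. The 16658 genes whose signal passed the array median on 2 or more arrays entered 1 fit of all 7 groups in limma 3.58.1 (R 4.3.3): lmFit, eBayes, two-sided, Benjamini-Hochberg over all genes, called under 0.05. Values after ± are standard errors of that fit unless SD is named. The fit assumes that the single MEF-ieSC array varies like the other groups; a second such array is not analysed here. Alternatives covered scaling, filters, feature choice, variance model, minimum size, arrays left out and fits of single comparisons.

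Genes described by value are the 4 Timp genes and, in each comparison, up to 5 largest rises and 5 largest falls among called members whose arrays do not overlap; other members appear in counts and ranges, and partner genes were picked from fixed lists after their values were seen. The members, lists and tests were chosen with earlier results of these data known.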

Additional observations from a re-analysis of the deposited data

Results flagged for a closer look

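The 2 inductions differed in the size or direction of the change for 21 of the 27 genes described, by the fit's test of the difference itself (limma, adjusted p under 0.05). Of all genes, 28.9% were called more positive and 25.2% more negative from TTF. Some of the genes described were named for their size in this same test, so the count is not set against those shares. Values here are log2 differences, the change from TTF less the change from MEF.

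Among the inhibitors, Timp4 (-1.85), Timp3 (-1.49) and Timp2 (-1.36) were more negative from TTF. So were the MMPs Mmp3 (-4.35), Mmp13 (-1.63), Mmp10 (-1.48), Mmp19 (-0.99), Mmp24 (-0.93) and Mmp11 (-0.48), while Mmp9 (1.52) was more negative from MEF. The Mmp9 value depends on the feature: 1 of its features gave -3.07 from TTF and -3.04 from MEF, and another -1.26 and -5.48. The Mmp24 value is -0.35 with the mean of its features (adjusted p = 0.281; range over the alternatives 0.000282 to 0.281).

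Among the ADAMTS genes, Adamts5 (-2.41), Adamts19 (-1.86), Adamts1 (-1.78), Adamts15 (-1.31) and Adamts2 (-1.30) were more negative from TTF. More positive were Adamts4 (6.27), Adamts9 (2.08), Adamts16 (2.00), Adamts17 (1.99), Adamts14 (1.59) and Adamts7 (0.46). The Adamts4 value is that of the clone feature, and its other feature changed by -2.51 from TTF and -2.14 from MEF. The other Adamts14 feature changed by 0.19 from TTF and -0.26 from MEF. Timp4, Mmp3, Mmp9, Mmp10, Mmp13 and Adamts5 were dim in both induced groups. By their group means Timp4, Mmp24 and Adamts19 were dim in MEF, and Adamts17 in TTF. The values of these genes here depend on the unknown background. No group has 4 arrays or more, so no array was tested as standing apart.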

How the results depend on the processing

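No alternative that was run reversed a direction; the features of 1 gene were tried only as their mean, and by single features the direction of some members differs, as for Adamts4. Of the 18 counts of called members, these moved by more than 1.5 times. With a minimum difference of 1, the members higher in TTF than in MEF went from 19 to 11, those higher in TTF-ieSC than in MEF-ieSC from 6 to 1, and those higher and lower in mature than in immature Sertoli cells from 18 to 11 and from 14 to 8. With the filter at the 75th percentile, the members more positive from TTF than from MEF went from 11 to 7, with fewer genes tested. With the groups of the comparison alone, those higher and lower in TTF-ieSC than in MEF-ieSC went from 6 to 0 and from 3 to 0, with 3 arrays in the fit. Leaving out 1 array gave 3 to 6 higher members there, 22 to 23 lower in TTF-ieSC than in TTF, and 20 to 22 lower in MEF-ieSC than in MEF. Comparisons with MEF-ieSC have no value without its array.

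Of 243 results for single genes, 32 changed their call under some alternative, the minimum size left out. Mmp2 in TTF against MEF (0.21, adjusted p = 0.0476) ranged from 0.0293 to 0.237. The array titles number the samples in 2 runs, 1 to 8 and 9 to 16, with the groups in the same order, and the labels do not say that a run marks a batch, a day or animals. A fit with the run as a replicate block, chosen after the data were seen, called 9 higher and 22 lower in TTF-ieSC than in TTF and 7 higher and 23 lower in MEF-ieSC than in MEF, moved the other counts by at most 2, and lost no call of a gene described by value. It called 7 further such results, Timp3 (-0.22, adjusted p = 0.0251) in MEF-ieSC against MEF and Mmp14 (-0.30, 0.0465) between the inductions among them. Deviations of arrays of 1 run correlated at 0.01 to 0.18 over the 15 pairs of groups, above 0.1 in 4. The difference between runs had 1 sign in all 6 groups with 2 arrays for 17% of all genes. The same held for 6 members (16.7%), Timp3 among them. These values do not settle whether a run shifts the signals, and the main fit does not take the numbers to pair the samples. The only MEF-ieSC array is in the second run. Levels below the array median rest on a background that is not known, so the size of falls that end there is limited by signal.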
